A study of Mus musculus with 10 samples.

Results

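The genes described here are 9 synaptic adhesion genes of the ventral hippocampus (vHpc): the neurexins Nrxn2 and Nrxn3, the neuroligins Nlgn1, Nlgn2 and Nlgn3, and the leucine-rich repeat transmembrane genes Lrrtm1, Lrrtm2, Lrrtm3 and Lrrtm4. They were taken by symbol from the 24421 gene symbols of the expression table, and all 9 passed the filter on low values that left 15081 genes for testing. RNA-seq was made from the vHpc of ovariectomised (OVX) young adult female C57/BL6 mice. They were wild type (OVX WT) or carried 1 copy of a knock-in of the human BDNF Val66Met variant (OVX Het-Met). After 2 weeks of recovery, the mice drank 17β-estradiol (E2 add-back, 300 nM, about 0.7 µg per day) or vehicle (0.1% ethanol) for 6 weeks. The 10 libraries, each of RNA pooled from 2 animals, were 2 of vehicle-treated OVX WT mice, 2 of E2-treated OVX WT mice, 3 of OVX Het-Met mice given vehicle and 3 of OVX Het-Met mice given E2. Every group lacked ovaries, so no group stood for an intact cycle, and the knock-in allele was present in every cell of the Het-Met mice. The comparisons asked whether E2 add-back, the Met allele or their combination went with a different RNA level of these genes.

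Neurexins are presynaptic adhesion proteins that reach across the synaptic cleft and bind a wide set of postsynaptic partners. Neuroligins and LRRTMs are among those partners: Nlgn1 is found mainly at excitatory synapses, Nlgn2 mainly at inhibitory synapses and Nlgn3 at both, whereas the LRRTMs act at excitatory synapses. Together the proteins align the release machinery with receptors, and in the hippocampus they are known for their part in the assembly and plasticity of synapses.

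Values are CPM, reads per 1000000 reads counted on genes in a library, and between 19820184 and 23267410 reads per library were counted. In every library 1 read was worth between 0.0430 and 0.0505 CPM, so the lowest value of any of the 9 genes, 21.1 CPM, stood for 456 reads. In whole tissue, fewer cells of a type and less RNA per cell cannot be told apart. Markers of neurons and of the hippocampus were present in every library. The summed CPM of 6 neuronal markers, led by Snap25, lay between 7250 and 8037. That of 6 markers of CA1 and CA3 pyramidal cells lay between 459 and 569. Markers of the thalamus, a neighbouring region, were also present, and the sum of 5 lay between 56.1 and 84.2 CPM. The sum of 7 markers of the choroid plexus, the secretory epithelium of the ventricles, ran from 144 to 3211 CPM, so its RNA differed widely between libraries. None of the markers was at 0, and the ventral position was not checked against markers.

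Promoter sequence was available for 6 of the 9 genes from RefSeq (assembly GRCm38.p6), as the 250 bases before a transcription start, with 10 promoters in all. Both strands were searched for the estrogen response element GGTCANNNTGACC, the estrogen receptor motif GGTCA, which forms each arm of the full element, the cAMP response element TGACGTCA and the GC box GGGCGG. The full estrogen response element was in none of the 10 promoters and in 0.0639% of all 32851 promoters of that length, and the cAMP response element in none of the 10 and in 1.55% of all. GGTCA was in 1 of the 10, that of Lrrtm3, against 35.2% of all promoters, and the GC box in 1 of the 10, that of Nlgn2, against 32.7%. The 3 sequences below are shown because they belong to the 2 promoters with a match and to Lrrtm1, the gene with the lowest p-value for E2. Capitals mark GGTCA (read as TGACC on the printed strand) in Lrrtm3 and the GC boxes in Nlgn2, and the Lrrtm1 window held none of the 4 motifs. The windows are chr10:64090256-64090505 (minus strand) for Lrrtm3, chr11:69837785-69838034 (minus strand) for Nlgn2 and chr6:77242227-77242476 (plus strand) for Lrrtm1.
Lrrtm3: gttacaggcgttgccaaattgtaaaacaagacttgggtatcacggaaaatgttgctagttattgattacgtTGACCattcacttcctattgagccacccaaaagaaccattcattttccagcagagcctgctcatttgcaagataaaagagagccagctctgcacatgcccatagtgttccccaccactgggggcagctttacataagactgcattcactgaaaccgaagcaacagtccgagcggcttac
Nlgn2: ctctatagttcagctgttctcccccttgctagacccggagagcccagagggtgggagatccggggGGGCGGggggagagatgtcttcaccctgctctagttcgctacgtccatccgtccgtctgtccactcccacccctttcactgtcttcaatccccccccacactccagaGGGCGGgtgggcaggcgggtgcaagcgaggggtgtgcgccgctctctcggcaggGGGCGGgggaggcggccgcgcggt
Lrrtm1: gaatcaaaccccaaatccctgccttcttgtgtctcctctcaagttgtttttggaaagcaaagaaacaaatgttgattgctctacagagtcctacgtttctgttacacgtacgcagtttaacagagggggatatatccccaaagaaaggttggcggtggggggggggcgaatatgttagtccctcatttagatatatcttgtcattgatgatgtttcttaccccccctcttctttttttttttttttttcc
The promoters of these genes had a median GC content of 48%, between 42% and 67.6%, against a median of 52.4% over all promoters. The highest GC content belonged to Nlgn2. A match of letters describes the window and does not show binding.

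The genes differ widely in size in the mouse assembly mm10. Nrxn3 (chr12:88722876-90334935, plus strand) spans 1612 kb and Nlgn1 (chr3:25426215-26332460, minus strand) 906 kb, whereas Nlgn2 (chr11:69823122-69837784, minus strand) spans 14.7 kb. Nrxn2 lies at chr19:6418731-6544169 (plus strand), Nlgn3 at chrX:101299168-101325963 (plus strand) and Lrrtm4 at chr6:80018877-80810143 (plus strand). The other LRRTM genes lie inside genes of the alpha-catenins, which link cadherins to the actin cytoskeleton, on the opposite strand: Lrrtm1 (chr6:77242689-77257791, plus strand) inside Ctnna2, Lrrtm2 (minus strand of chromosome 18) inside Ctnna1, and Lrrtm3 (chr10:63928472-64090277, minus strand) inside Ctnna3. Lrrtm1 and Lrrtm3 shared no exon bases with their hosts and Lrrtm2 shared 95. Exon bases were also shared by Nlgn3 with Gm21986 on the same strand (3823 bases), by Nlgn1 with the antisense gene A830092H15Rik (1229) and by Lrrtm4 with the antisense gene Gm4409 (1543), and on the opposite strand by Nrxn2 with Slc22a12 (682) and Gm14964 (207) and by Nrxn3 with Gm37980 (439), so reads there could have been split or lost. Whether strand was used in counting is not given in the sources used here.

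Nlgn2, the neuroligin of inhibitory synapses, had the highest level per kb of exon, and the LRRTMs were spread over the whole order. The mean over the 10 libraries was 53.1 ± 2.43 CPM per kb (SD, n = 10) for Nlgn2, 35.0 ± 2.05 for Lrrtm1 and 27.2 ± 1.17 for Nrxn2. The libraries of these 3 genes did not overlap with those of the next gene in the order. Nrxn3 (17.0 ± 1.16 CPM per kb) and Lrrtm2 (14.6 ± 1.40) followed with overlapping ranges, although Nrxn3 was above Lrrtm2 in 9 of 10 libraries. Nlgn3 had 9.59 ± 0.883 CPM per kb and Nlgn1 7.20 ± 0.581, again with overlapping ranges, with Nlgn3 above Nlgn1 in 10 of 10 libraries. Lrrtm3 (6.63 ± 0.864 CPM per kb) and Lrrtm4 (6.61 ± 0.478) could not be ordered, since Lrrtm3 was the higher in 3 of 10 libraries. These levels rest on the union of annotated exons, so a gene whose long annotated ends are little used would appear lower.

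**Figure D1:**
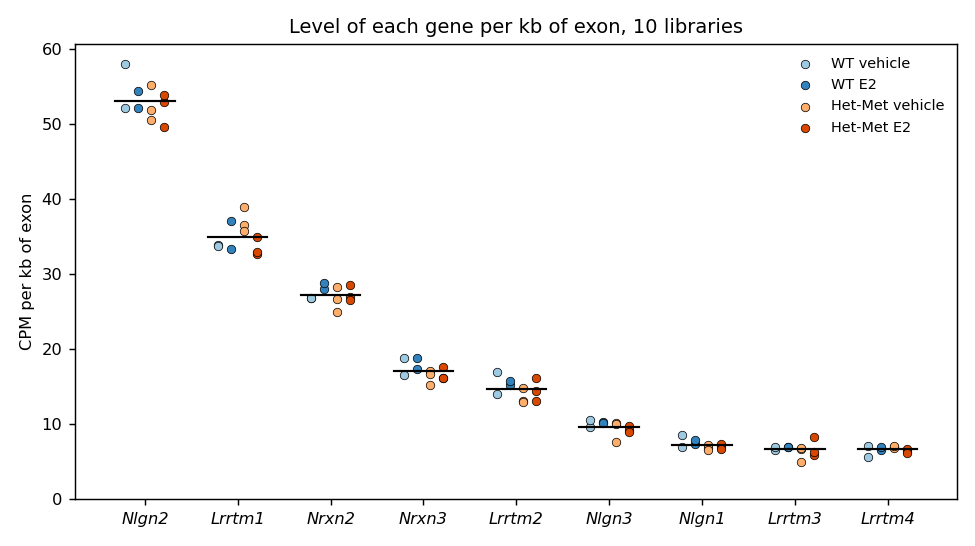
Level of each gene in CPM per kb of exon (vertical axis, linear from 0), with 1 point per library coloured by group and a line at the mean of 10 libraries. Nlgn2 lay between 49.7 and 58.0 and stood above every other gene, and the points of Lrrtm3 and Lrrtm4 overlapped.

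Together the 9 genes held between 0.125% and 0.141% of the reads counted on genes. The summed neurexins lay between 536 and 624 CPM, the neuroligins between 453 and 517 CPM and the LRRTMs between 241 and 280 CPM. The ratio of Nlgn2 to Nlgn1 in CPM had a mean of 3.13 ± 0.681 (SD, n = 2) in vehicle-treated OVX WT mice, 3.02 ± 0.0372 (n = 2) in E2-treated OVX WT mice, and 3.32 ± 0.264 (n = 3) without and 3.23 ± 0.273 (n = 3) with E2 in OVX Het-Met mice. The lowest and nearly the highest ratio, 2.65 and 3.62, both came from vehicle-treated OVX WT mice, so the groups overlapped.

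Replicates differed little for most of these genes. The median SD of log2(CPM + 0.5) within groups was 0.101 for the 9 genes, 0.0909 for the 6404 genes of like level and 0.124 for all genes tested. Nrxn2 was the steadiest, with a coefficient of variation of 4.17% within groups, and Lrrtm3 the least steady, with 14.7%. Counting alone gave 1.12% for Nrxn2 and 4.11% for Lrrtm3, so most of the spread lay between libraries and not in the depth.

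With E2 add-back, 0 of the 9 genes passed the test in OVX WT mice, OVX Het-Met mice or over both genotypes. The test was limma on log2(CPM + 0.5), and a call needed an adjusted p under 0.05 and a fold change above 1.3. Of all genes tested, 0.0133% were called in OVX WT mice, 0% in OVX Het-Met mice and 0.00663% over both genotypes, so calls were rare in the whole table. At an unadjusted limma p under 0.05, the counts among the 9 were 0 in OVX WT mice (4.04% of all genes), 1 in OVX Het-Met mice (5.45%) and 0 over both (3.22%). The count in OVX WT mice was 1 without replicate 3 of the vehicle-treated group. edgeR and DESeq2 on the recovered reads also called 0 of the 9. Over both genotypes the 95% intervals of the fold changes ran from 0.900 to 1.24, and the median log2 fold change was 0.02 for the 9 genes and 0.00 for all genes.

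The neurexins, the presynaptic side of the pair, kept close levels with and without E2. Nrxn2 had 369.5 and 370.5 CPM in vehicle-treated and 387.6 and 398.3 CPM in E2-treated OVX WT mice. The Het-Met libraries had 344.9, 390.1 and 368.4 CPM under vehicle and 372.7, 367.2 and 394.0 CPM under E2. Both E2-treated WT libraries were above both vehicle-treated ones, as were those of 15.6% of all genes, and the Het-Met groups overlapped. The log2 fold change over both genotypes was 0.06 ± 0.05 (SE; limma, adjusted p = 0.999). It was 0.04 with the trend on exon length removed, and between 0.04 and 0.09 when single libraries were left out. Nrxn3 had 208.3 and 236.8 CPM under vehicle and 236.8 and 218.8 CPM under E2 in OVX WT mice, and 191.0, 214.5 and 209.6 CPM against 221.5, 203.9 and 202.8 CPM in OVX Het-Met mice. Treated and untreated libraries overlapped within each genotype, and the log2 fold change was 0.03 ± 0.06 (SE; limma, adjusted p = 0.999).

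The neuroligins also overlapped between treated and untreated libraries. Nlgn1 had 92.8 and 113.6 CPM in vehicle-treated and 99.2 and 105.2 CPM in E2-treated OVX WT mice. The Het-Met libraries had 90.9, 95.8 and 88.1 CPM under vehicle and 93.6, 97.8 and 89.7 CPM under E2. The groups overlapped in both genotypes, and the log2 fold change over both was 0.01 ± 0.06 (SE). Nlgn2 had 335.7 and 301.3 CPM under vehicle and 301.9 and 314.8 CPM under E2 in OVX WT mice, and 292.0, 299.8 and 319.2 CPM against 306.0, 287.3 and 312.0 CPM in OVX Het-Met mice. Nlgn3 had 88.6 and 98.1 CPM under vehicle and 95.2 and 93.9 CPM under E2 in OVX WT mice, and 69.9, 93.5 and 92.7 CPM against 89.7, 85.1 and 82.3 CPM in OVX Het-Met mice. Neither gene separated treated from untreated libraries, with log2 fold changes over both genotypes of -0.03 ± 0.05 for Nlgn2 and 0.02 ± 0.07 for Nlgn3.

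**Figure D2:**
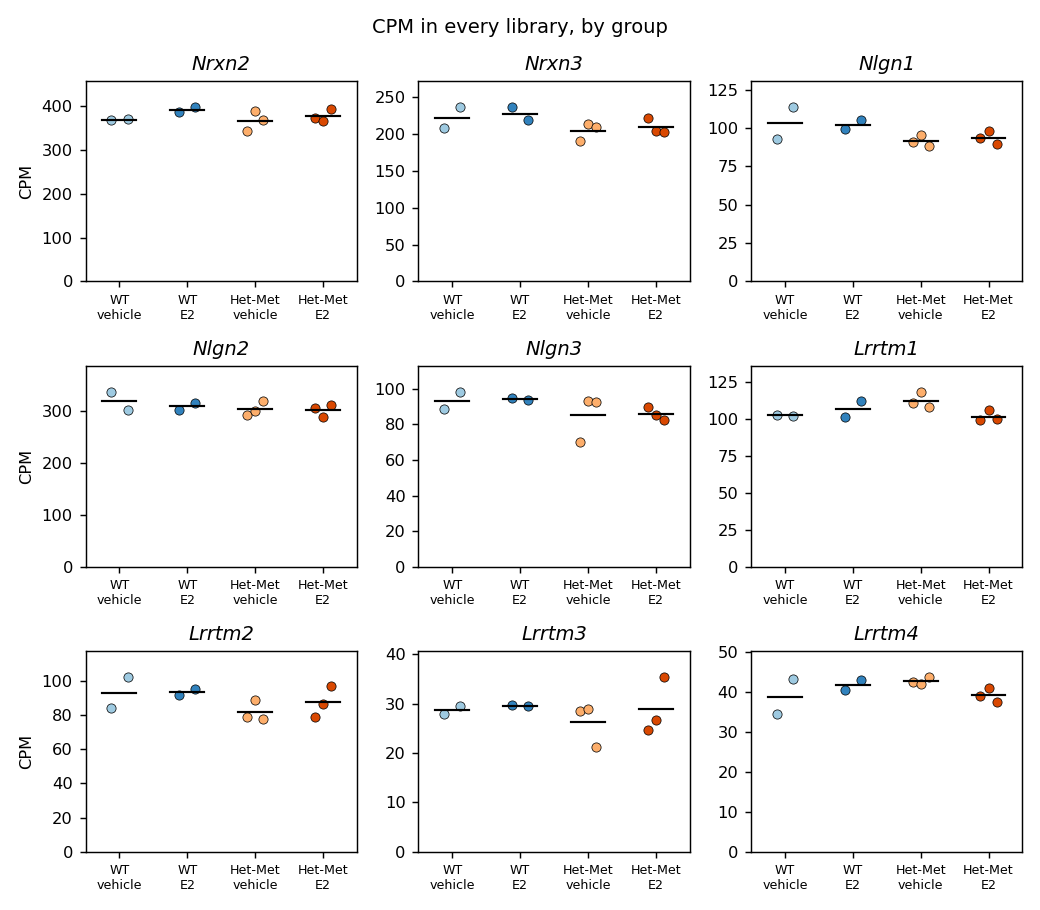
CPM of each gene (vertical axes, linear from 0) in vehicle-treated and E2-treated OVX WT and OVX Het-Met mice, with 1 point per library and a line at the group mean. In OVX Het-Met mice the E2 libraries of Lrrtm1 and Lrrtm4 lay below the vehicle libraries, while the other genes overlapped between those groups.

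Among the LRRTMs, the postsynaptic partners at excitatory synapses, Lrrtm1 had the lowest unadjusted p for E2. It had 102.7 and 102.1 CPM in vehicle-treated and 101.0 and 112.4 CPM in E2-treated OVX WT mice. With the Met allele the values were 110.6, 118.0 and 108.3 CPM under vehicle and 99.0, 105.8 and 99.9 CPM under E2. All 3 E2-treated Het-Met libraries were below all 3 vehicle-treated ones, whereas the WT groups overlapped. The log2 fold change in OVX Het-Met mice was -0.14 ± 0.06 (SE), a fold of 0.905 with a 95% interval from 0.823 to 0.995, with an unadjusted limma p of 0.0407 and an adjusted p of 0.872. The test of the difference between genotypes, the interaction, gave a log2 value of -0.20 ± 0.10 (SE), with an unadjusted limma p of 0.0659 and an adjusted p of 0.945. The interaction was -0.28 without replicate 1 and -0.12 without replicate 2 of E2-treated OVX WT mice. The unadjusted p for E2 was above 0.05 with DESeq2, with the trend on exon length removed, and without replicate 2 of vehicle-treated or replicate 1 or 3 of E2-treated Het-Met mice. The response of Lrrtm1 to E2 was thus not shown to differ between genotypes.

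Lrrtm4, known for its role at synapses of the dentate gyrus, gave a like pattern. It had 34.4 and 43.1 CPM under vehicle and 40.3 and 42.9 CPM under E2 in OVX WT mice. The Het-Met values were 42.5, 42.1 and 43.6 CPM under vehicle and 38.9, 41.0 and 37.6 CPM under E2. The Het-Met groups did not overlap, with a log2 fold change of -0.12 ± 0.08 (SE; limma, adjusted p = 0.953) and an interaction of -0.24 ± 0.13 (SE; limma, adjusted p = 0.9998). The interaction was -0.07 without replicate 1 and -0.40 without replicate 3 of vehicle-treated OVX WT mice. In OVX Het-Met mice, every E2 library below every vehicle library was thus seen for 2 of the 9 genes, and for 5.11% of all genes. Markers of the choroid plexus had the same order of means: the sum of their 7 genes, led by Ttr, was 3211, 1432 and 1886 CPM in OVX Het-Met mice given vehicle and 1507, 422 and 252 CPM in those given E2, with overlapping ranges. In OVX WT mice that sum was 144 and 1052 CPM under vehicle and 2429 and 1852 CPM under E2. No choroid plexus marker was at 0, and the part of this tissue in the Lrrtm1 and Lrrtm4 values was not tested. The 5 dentate granule cell markers, led by Dock10, summed to 161, 197 and 298 CPM in vehicle-treated and 206, 237 and 171 CPM in E2-treated Het-Met mice, and these groups overlapped.

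Lrrtm2 had 84.2 and 102.0 CPM under vehicle and 91.5 and 95.1 CPM under E2 in OVX WT mice, and 78.8, 88.7 and 78.0 CPM against 78.6, 86.6 and 97.3 CPM in OVX Het-Met mice. Lrrtm3 had 27.9 and 29.5 CPM under vehicle and 29.7 and 29.4 CPM under E2 in OVX WT mice, and 28.6, 28.8 and 21.1 CPM against 24.6, 26.6 and 35.3 CPM in OVX Het-Met mice. The lowest and the highest value of Lrrtm3 both came from OVX Het-Met mice, and both genes overlapped between treated and untreated groups. Over both genotypes the log2 fold change was 0.05 ± 0.07 (SE) for Lrrtm2 and 0.09 ± 0.10 (SE) for Lrrtm3. The Lrrtm3 value was 0.01 without replicate 3 and 0.14 without replicate 1 of E2-treated Het-Met mice, and 0.02 without replicate 3 of vehicle-treated Het-Met mice. For Lrrtm3, the gene whose promoter held GGTCA, the fold was 1.06 with a 95% interval from 0.912 to 1.24.

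**Figure D3:**
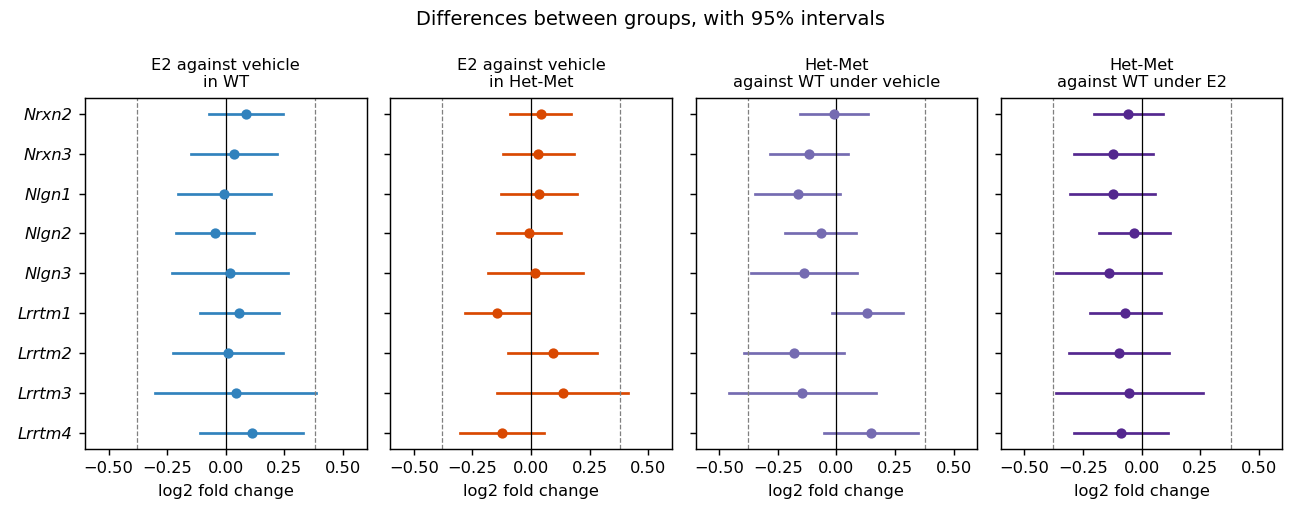
Log2 fold change of each gene (points) with its 95% interval (lines) for E2 against vehicle in each genotype and for OVX Het-Met against OVX WT mice under each treatment, from limma. Dashed lines mark a fold change of 1.3, and the interval of Lrrtm1 for E2 in OVX Het-Met mice was the only one that left out 0, by a small margin.

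Between genotypes, too, 0 of the 9 genes passed the test, under vehicle (0.00663% of all genes called), under E2 (0.0265%), over both treatments (0.0265%) and for the interaction (0.0729%). At an unadjusted limma p under 0.05, the counts among the 9 were 0 under vehicle (10.7% of all genes), 0 under E2 (11.7%) and 0 for the interaction (5.42%). The count under vehicle was 3 without replicate 1 of vehicle-treated OVX WT mice, and 1 without replicate 3 of that group, without replicate 2 of vehicle-treated Het-Met mice or with DESeq2. The count under E2 was 1 when only the libraries compared were fitted. That for the interaction was 1 without replicate 3 of vehicle-treated or replicate 1 of E2-treated OVX WT mice, without replicate 3 of vehicle-treated Het-Met mice, with no filter on low values and with quantile normalization. Over both treatments, 2 of the 9 had an unadjusted p under 0.05, against 16.6% of all genes. Both, Nlgn1 and Nrxn3, were lower in OVX Het-Met mice, as were 7.27% of all genes at that p. This count was 0 without replicate 3 of vehicle-treated OVX WT mice or with no filter on low values, 4 without replicate 2 of vehicle-treated Het-Met mice, and 1 with quantile normalization or without either E2-treated WT library, replicate 1 of vehicle-treated or replicate 2 or 3 of E2-treated Het-Met mice. Over both treatments 7 of the 9 estimates were below 0, with a median log2 fold change of -0.10 against 0.02 for all genes tested. None of the 9 had every Het-Met library below every WT library over both treatments, as 1.72% of all genes did.

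Nlgn1, the neuroligin of excitatory synapses, had the smallest p-value between genotypes. Its mean was 102.7 ± 8.85 CPM (SD, n = 4) in OVX WT mice and 92.7 ± 3.73 CPM (n = 6) in those with the Met allele. The WT libraries lay between 92.8 and 113.6 CPM and the Het-Met libraries between 88.1 and 97.8 CPM, so the ranges overlapped through 1 vehicle-treated WT library. The log2 fold change was -0.14 ± 0.06 (SE), a fold of 0.905 with a 95% interval from 0.828 to 0.989, with an unadjusted limma p of 0.0293 and an adjusted p of 0.248. It was -0.22 (limma, adjusted p = 0.0830) without replicate 1 of vehicle-treated OVX WT mice and -0.07 (unadjusted p = 0.219) without replicate 3. Under vehicle the estimate was -0.16 ± 0.08 (SE) and under E2 -0.12 ± 0.08 (SE). The vehicle estimate rested on which WT library was used, since it was -0.31 without replicate 1 of vehicle-treated OVX WT mice and -0.02 without replicate 3. The E2 estimate was -0.08 without replicate 2 of E2-treated OVX WT mice.

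Nrxn3 had a mean of 225 ± 14.1 CPM (SD, n = 4) in OVX WT mice and 207 ± 10.5 CPM (n = 6) in those with the Met allele, and the ranges overlapped. Its log2 fold change was -0.12 ± 0.06 (SE), with an unadjusted limma p of 0.0486 and an adjusted p of 0.298, and it was -0.17 without replicate 1 and -0.07 without replicate 3 of vehicle-treated OVX WT mice. Nlgn3 gave -0.14 ± 0.07 (SE; adjusted p = 0.362) and Lrrtm2 -0.14 ± 0.07 (SE; adjusted p = 0.336). Estimates closer to 0 came from Nlgn2 (-0.05 ± 0.05), Nrxn2 (-0.03 ± 0.05), Lrrtm1 (0.03 ± 0.05) and Lrrtm4 (0.03 ± 0.07), and Lrrtm3 gave -0.10 ± 0.10. Leaving out single libraries moved Nlgn3 from -0.18 (without replicate 1 of vehicle-treated OVX WT mice) to -0.07 (without replicate 1 of vehicle-treated Het-Met mice). It moved Lrrtm2 from -0.21 without replicate 1 to -0.07 without replicate 3 of vehicle-treated OVX WT mice. Lrrtm3 ran from -0.17 without replicate 3 of E2-treated to -0.03 without replicate 3 of vehicle-treated Het-Met mice. Nlgn2 gave -0.01 without replicate 1 and -0.09 without replicate 3 of vehicle-treated OVX WT mice, and Nrxn2 gave -0.01 without replicate 1 and -0.055 without replicate 2 of vehicle-treated Het-Met mice. The 95% intervals of the 9 folds ran from 0.801 to 1.13, so a difference past 1.3-fold in either direction was outside all of them.

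Within single treatments, some genes separated the genotypes without passing the test. Under E2, every Het-Met library was below every WT library for Nlgn1 and Nlgn3, as for 14.7% of all genes. Under vehicle, every Het-Met library was above every WT library for Lrrtm1, as for 14.8% of all genes. The Lrrtm1 estimate was 0.13 ± 0.07 (SE; limma, adjusted p = 0.520) under vehicle and -0.07 ± 0.07 (SE; adjusted p = 0.731) under E2. The E2 value turned on 1 library, since it was -0.15 without replicate 1 and 0.01 without replicate 2 of E2-treated OVX WT mice. With the length trend removed, Lrrtm1 gave 0.07 under vehicle and -0.13 under E2. For Lrrtm4 the estimate was 0.15 ± 0.09 (SE) under vehicle and -0.09 ± 0.09 (SE) under E2. The vehicle value was -0.01 without replicate 1 and 0.31 without replicate 3 of vehicle-treated OVX WT mice, and the E2 value was -0.13 without replicate 1 and -0.04 without replicate 2 of E2-treated OVX WT mice.

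Exon length moved with genotype across the whole table. The median log2 fold change of OVX Het-Met against OVX WT mice was 0.12 for the 1972 genes with under 2 kb of exon and -0.10 for the 858 genes with over 12 kb, of which 82.9% were below 0. Nrxn2, Nlgn1 and Nrxn3 have 13.8, 13.4 and 12.6 kb of exon, and the 9 genes have a median of 6.15 kb against 4.43 kb for all genes tested. With the trend on exon length removed from each library, the estimate was -0.06 for Nlgn1 and -0.04 for Nrxn3, and 0 of the 9 genes had an unadjusted p under 0.05. The estimate of Lrrtm2 stayed at -0.14, that of Nlgn3 was -0.10, and those of Nrxn2 (0.06) and Lrrtm1 (-0.03) changed sign. Lrrtm3 moved further from 0, to -0.13, while Nlgn2 (-0.05) and Lrrtm4 (0.03) changed little.

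Of 63 further genes of the same adhesion system, 0 passed the test in any comparison, and 14 had an unadjusted limma p under 0.05 between genotypes over both treatments. Of these, 13 were lower in OVX Het-Met mice, against 7.27% of all genes, and 1 was higher, against 9.33%. The 63 genes had a median of 6.36 kb of exon and the 13 lower ones a median of 11.3 kb. Under vehicle alone 10 of the 63 had an unadjusted p under 0.05, against 10.7% of all genes, and under E2 alone 7 of the 63, against 11.7%. Of the 13, 8 came from the longest list, the other synaptic adhesion organizers, where 8 of 30 were lower at that p, 25 of 30 estimates were below 0 and the median log2 fold change was -0.08. Genes of this list ran from 2.16 kb of exon (Cadm4) to 22.8 kb (Ptprd). Over the whole table, 47.2% of genes with 4 to 8 kb, 68.3% with 8 to 12 kb and 82.9% with over 12 kb of exon were below 0. Their median log2 fold changes were 0.01, -0.05 and -0.10.

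Adgrl3, a latrophilin that binds teneurins and FLRT proteins, had the smallest p-value of the 63. It had 76.5 and 90.8 CPM in vehicle-treated and 95.5 and 91.2 CPM in E2-treated OVX WT mice. The Het-Met libraries had 67.6, 82.6 and 65.1 CPM under vehicle and 72.8, 69.8 and 69.8 CPM under E2, so 1 vehicle-treated Het-Met library lay within the WT range. The log2 fold change was -0.31 ± 0.07 (SE; limma, adjusted p = 0.120). The teneurins Tenm4 and Tenm1, ligands of latrophilins, gave -0.36 ± 0.09 (adjusted p = 0.126) and -0.42 ± 0.13 (adjusted p = 0.155), and Slitrk3, an organizer of inhibitory synapses, gave -0.22 ± 0.06 (adjusted p = 0.126). The Slitrk3 libraries did not overlap, with 97.9 to 105.2 CPM in OVX WT and 79.8 to 92.2 CPM in OVX Het-Met mice, as those of 1.72% of all genes did in that direction. The adjusted p-values of these genes moved with the tool and the libraries: adjusted DESeq2 p-values were 0.00516 for Adgrl3, 0.00925 for Tenm4 and 0.0231 for Slitrk3, while without replicate 2 of vehicle-treated OVX Het-Met mice limma gave 0.0221 for Adgrl3, 0.0307 for Tenm4 and 0.0361 for Tenm1. Among these values the fold change was also above 1.3 only for Tenm4 (-0.42 on the log2 scale) and Tenm1 (-0.53) without that library, so the DESeq2 values were not calls. Over all genes, 1.96% had an adjusted p under 0.05 with DESeq2 and 1.01% with limma without that library. With the length trend removed, the estimates were -0.19 for Adgrl3, -0.23 for Tenm4, -0.30 for Tenm1 and -0.24 for Slitrk3.

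Among the 10 secreted or surface partners of neurexins, 1 was lower and 1 higher at an unadjusted p under 0.05. C1ql3, a secreted C1q-like protein, had 66.1 and 79.8 CPM under vehicle and 71.3 and 74.6 CPM under E2 in OVX WT mice. The Het-Met values were 59.9, 64.8 and 63.7 CPM under vehicle and 59.6, 67.4 and 57.2 CPM under E2. The log2 fold change was -0.23 ± 0.07 (SE; limma, adjusted p = 0.136, and DESeq2, adjusted p = 0.0388), and the genotypes overlapped by 1 Het-Met library. C1ql2, its relative at mossy fibre synapses of dentate granule cells, went the other way, with a log2 fold change of 0.31 ± 0.10 (SE; limma, adjusted p = 0.156). It had 75.1 and 69.7 CPM under vehicle and 78.0 and 81.6 CPM under E2 in OVX WT mice, and 93.6, 81.9 and 120.5 CPM against 79.2, 89.3 and 109.5 CPM in OVX Het-Met mice. Its highest library, replicate 3 of vehicle-treated OVX Het-Met mice, also had the highest sum of dentate granule cell markers, 298 CPM. The next highest C1ql2 libraries did not share this order: replicate 3 of E2-treated OVX Het-Met mice had a sum of 171 CPM, and replicate 1 of the vehicle-treated ones the lowest of all, 161 CPM. The part of those cells in the C1ql2 values was not tested. With the length trend removed, the estimates were 0.22 for C1ql2, which has 2 kb of exon, and -0.30 for C1ql3.

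Of the 7 modulators of neuroligins and LRRTMs, 1 was lower at that p: Mdga2, a glycoprotein that blocks the binding of neuroligins to neurexins, with a log2 fold change of -0.16 ± 0.06 (SE; limma, adjusted p = 0.200) that was -0.04 with the length trend removed. Of the 10 intracellular binding proteins, 3 were lower, with log2 fold changes of -0.18 ± 0.06 for the scaffold Magi2, -0.15 ± 0.06 for Lin7a and -0.13 ± 0.06 for the neurexin-binding adaptor Apba1 (limma, adjusted p = 0.173, 0.246 and 0.274). With the length trend removed, Magi2 and Apba1 each gave -0.11, with unadjusted limma p-values of 0.0535 and 0.0523, and Lin7a gave -0.20 (unadjusted p = 0.0051). Apba1 gave -0.08 without replicate 3 of vehicle-treated OVX WT mice. The regulators of neurexin splicing, Khdrbs1, Khdrbs2 and Khdrbs3, gave 0.01 ± 0.07, 0.03 ± 0.13 and 0.06 ± 0.05. With the length trend removed they gave 0.01, 0.09 and 0.02. Khdrbs3 lay between 0.04 and 0.08 when single libraries were left out. Gene totals do not show splicing. The host genes Ctnna1 and Ctnna2 gave -0.03 ± 0.06 and 0.00 ± 0.05. Ctnna3, host of Lrrtm3, was at 0.142 CPM per kb of exon against 6.63 CPM per kb for Lrrtm3, with a log2 fold change of -0.34 ± 0.17 (SE; limma, adjusted p = 0.330). The Ctnna3 value rests on few reads, between 11 and 28 per library.

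**Figure D4:**
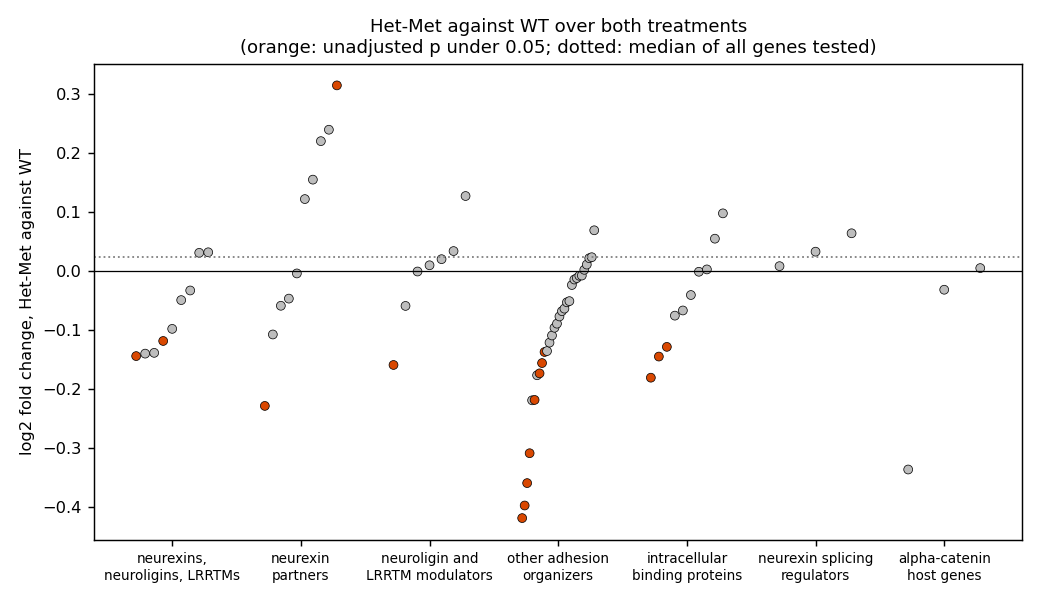
Log2 fold change of OVX Het-Met against OVX WT mice over both treatments (vertical axis) for the 9 genes and the 63 further genes by list, with 1 point per gene, orange at an unadjusted limma p under 0.05, and a dotted line at the median of all genes tested. The lowest points, near -0.4, belong to the other adhesion organizers, and the highest orange point is C1ql2.

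For E2 add-back, 1 of the 63 genes had an unadjusted limma p under 0.05 in OVX WT mice, against 4.04% of all genes. In OVX Het-Met mice there were 7, of which 6 were higher and 1 lower with E2, against 5.45% of all genes. Over both genotypes, 3 of the 63 had an unadjusted limma p under 0.05 for E2, against 3.22% of all genes. Sdc2, a heparan sulfate proteoglycan, gave 0.16 ± 0.07 (SE), Ntng1, a netrin-G, 0.19 ± 0.07 (SE) and Lin7b -0.18 ± 0.07 (SE), each with an adjusted p of 0.999. For the interaction the count was 2 of 63, against 5.42% of all genes. Ptprd, a receptor phosphatase that organizes the presynaptic side, had 320.4 and 265.6 CPM under vehicle and 241.8 and 251.9 CPM under E2 in OVX WT mice. The Het-Met values were 235.4, 235.6 and 217.5 CPM under vehicle and 265.1, 255.3 and 257.6 CPM under E2. The E2 libraries were below the vehicle libraries in OVX WT mice and above them in OVX Het-Met mice, with an interaction of 0.42 ± 0.11 (SE; limma, adjusted p = 0.262), which was 0.55 (adjusted p = 0.0364) without replicate 3 of vehicle-treated OVX WT mice. In that setting 0.305% of all genes had an adjusted limma p under 0.05 for the interaction. The Ptprd value was 0.28 without replicate 1 of that group, and 0.37 (limma, adjusted p = 0.558) with the length trend removed. Adgrl2, a latrophilin, gave an interaction of 0.31 ± 0.11 (SE; limma, adjusted p = 0.686), which was 0.20 without replicate 1 and 0.42 without replicate 3 of vehicle-treated OVX WT mice. E2 libraries on opposite sides of the vehicle libraries in the 2 genotypes, as for Ptprd and Adgrl2, were found for 2.04% of all genes. Summed choroid plexus markers went the other way round as group means. They had 598 CPM under vehicle and 2140 CPM under E2 in OVX WT mice. In OVX Het-Met mice they had 2176 and 727 CPM, with overlapping libraries. The part of this tissue in the Ptprd and Adgrl2 values was not tested.

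Deviations from the group means describe how the 9 genes varied together over the 10 libraries. The genes of a library share its depth and its CPM total. Of the 36 pairs, 25 had a positive Pearson r, with a median of 0.20. The highest values were 0.88 for Nlgn1 with Lrrtm4, 0.80 for Nrxn3 with Nlgn3 and 0.70 for Lrrtm2 with Lrrtm3, and the lowest was -0.75 for Nlgn1 with Nlgn2. In a WT group of 2 libraries the deviations are equal and opposite, so the 10 libraries hold only 6 residual degrees of freedom. Without subtraction of group means, r for these pairs, in the same order, was 0.35, 0.85, 0.74 and -0.23. In replicate 1 of vehicle-treated OVX Het-Met mice, 8 of the 9 genes were below the group mean, and Nrxn2, Nrxn3 and Nlgn3 had their lowest value of the series there. In replicate 1 of vehicle-treated OVX WT mice 7 of the 9 were below the mean of its pair.

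**Figure D5:**
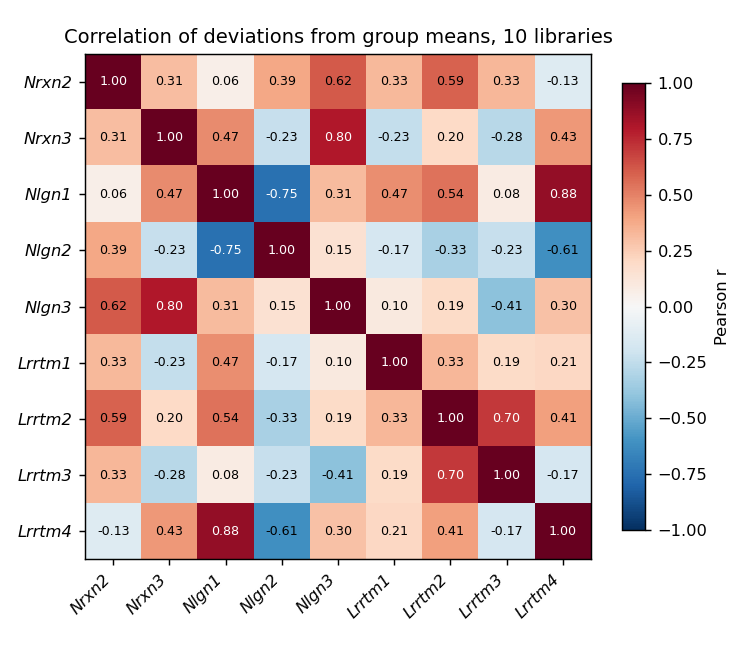
Pearson r between the 9 genes of deviations from group means of log2(CPM + 0.5) over 10 libraries, with red for positive and blue for negative values. Nlgn1 with Lrrtm4 (0.88) and Nlgn1 with Nlgn2 (-0.75) are the extremes.

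Over the 10 libraries, the genes most like each member in log2(CPM + 0.5), among 11736 genes that averaged 5 CPM or more, are given as a description. Each r was picked as the highest among these genes over only 10 libraries, and how high unrelated genes would reach was not tested. Group differences and the trend on exon length were left in. Nrxn3 was most like Mtor (r = 0.984) and Rapgef5 (0.978), and Nrxn2 most like Smarcc1 (0.934) and Grin2d (0.921). Nlgn1 was most like Pank3 (0.974) and Pja2 (0.974), Nlgn2 most like Triobp (0.920) and Celf5 (0.913), and Nlgn3 most like Cyfip2 (0.974) and Ddi2 (0.969). Among the LRRTMs, Lrrtm1 was most like Zfand3 (0.940) and Atg101 (0.902), Lrrtm2 most like Mfsd6 (0.966) and Appl1 (0.966), Lrrtm3 most like Plekhb2 (0.962) and Gabra3 (0.956), and Lrrtm4 most like Arhgef26 (0.934) and Lin7c (0.934). None of the 9 genes was among the 2 nearest matches of another. Lin7c, a scaffold protein, was the one match that was also on the list of intracellular binding proteins.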

How the data were processed

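The authors aligned the reads to mm10 with TopHat2 and deposited CPM per gene symbol, in columns named as counts. Every value was a whole multiple of the value of 1 read in its library (tolerance 0.01, 100% of values), and whole reads were recovered from this. The settings of counting and the annotation are not given in the sources used here. Of 24421 symbols, 23376 matched GENCODE vM21 directly and 651 by an older symbol. limma 3.58.1 in R 4.3.3 was fitted, as 4 group means, to log2(CPM + 0.5) of 15081 genes that averaged 0.5 CPM or more. Variances were moderated by empirical Bayes with a trend on intensity (8.90 prior and 6 residual degrees of freedom). Tests were two-sided, with Benjamini-Hochberg adjustment over all genes tested. edgeR 4.0.16 and DESeq2 1.42.0 on recovered reads, other pseudocounts, filters and scalings, a replicate block, removal of the trend on exon length and each library left out were alternatives. Fold changes are on the log2(CPM + 0.5) scale, and p-values measure the spread between pooled libraries. The members and gene lists were chosen with earlier results of these data known. Named further genes are those with an unadjusted p under 0.05 in an average or the interaction, up to 4 a list and comparison by smallest p, with the splicing regulators and host genes whatever they did.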

Additional observations from a re-analysis of the deposited data

Results flagged for a closer look

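Of the genes named, 2 further adhesion genes had E2 libraries that lay on opposite sides of the vehicle libraries in the 2 genotypes, as did those of 2.04% of all genes tested. Both were named because their unadjusted interaction p was under 0.05. For Ptprd, both E2-treated OVX WT libraries were below both vehicle-treated ones and all 3 E2-treated Het-Met libraries were above all 3 vehicle-treated ones, and the interaction on the log2 scale was 0.42 ± 0.11 (SE; limma, adjusted p = 0.262). For Adgrl2, the libraries lay the same way round, with an interaction of 0.31 ± 0.11 (SE; limma, adjusted p = 0.686). Neither difference between genotypes passed the test. The group means of the summed choroid plexus markers went the other way round in both genotypes. The part of this tissue in the 2 genes was not tested. Single groups hold 2 or 3 libraries, so no library was tested as standing apart from its group.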

How the results depend on the processing

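None of the 9 genes was called in any of 151 counts under the alternatives, whereas the number with an unadjusted p under 0.05 between genotypes over both treatments ran from 0 to 4. Of 610 alternative fold changes of the 9 genes, 589 kept their direction and 21 turned it, and none passed the adjusted threshold. Of 419 for the further genes, 388 kept direction and call, 23 turned and 8 newly had an adjusted p under 0.05 (given beside those genes). The causes were not tested.

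The changes of direction between genotypes were as follows. Ctnna2 gave -0.0185 with median-of-ratios scaling, -0.0133 with edgeR and -0.0183 with DESeq2, Khdrbs1 gave -0.0152, -0.0087 and -0.0137, and Khdrbs2 gave -0.0026 with edgeR and -0.0072 with DESeq2. With the exon length trend removed, Lrrtm1 gave -0.0304 and Nrxn2 0.0556, and Nlgn1 gave -0.0112 for E2. Leaving out single libraries gave -0.0805 to 0.0162 for Ctnna1, -0.026 to 0.035 for Ctnna2, -0.0489 to 0.0645 for Khdrbs1, -0.1155 to 0.1802 for Khdrbs2, -0.0071 to 0.0696 for Lrrtm1 and -0.0502 to 0.111 for Lrrtm4, -0.146 to 0.0073 for Lrrtm1 under E2 and -0.013 to 0.3095 for Lrrtm4 under vehicle. For E2 over both genotypes it gave -0.0179 to 0.1203 for Lrrtm2, -0.0876 to 0.0737 for Lrrtm4, -0.06 to 0.085 for Nlgn1, -0.0657 to 0.012 for Nlgn2, -0.0501 to 0.0548 for Nlgn3 and -0.0127 to 0.0796 for Nrxn3. Where 1 library was left in a group, it was assumed to vary like the others.

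Replicate numbers gave no sign of pairing: 0 of 12 same-numbered pairs had a correlation of deviations over 0.1 (from -0.172 to 0.0826). Deviations within groups of 2 or 3 libraries depend on each other, so this check cannot decide whether libraries were paired. With the replicate block, 0 of the 9 genes were called, and only Ctnna2 (-0.0045), Khdrbs1 (-0.0142) between genotypes and Nlgn1 for E2 (-0.0017) turned direction. With 2 or 3 pooled libraries per group, the intervals above set what could be seen, not the read depth.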
